A study of Homo sapiens with 18 samples.

Results

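The AF4 family and its partners in the super elongation complex were followed as 10 genes: AFF1, AFF2, AFF3, AFF4, ELL, ELL2, EAF1, EAF2, MLLT1 and MLLT3. They were taken by gene symbol from a table of 54425 genes, and all 10 were among the 17660 genes with enough counts for a test. The values are ATAC-seq read counts per gene. In ATAC-seq a transposase cuts where the DNA is open, so a count here describes accessibility assigned to a gene and not its expression. Which region of a gene was counted is not given in the sources used here. The cells were HEK293T, a human embryonic kidney line, carrying t(4;11) fusion constructs; MLL is an older name of KMT2A, and AF4 of AFF1. In AF4-MLL cells an AF4-MLL construct was inducible, in MLL-AF4 cells an MLL-AF4 construct was inducible, and in co-expressing cells a constitutive MLL-AF4 construct was combined with inducible AF4-MLL. The labels describe the cells of all settings as stably transfected, whereas the study's methods give the co-expressing cells a stable MLL-AF4 construct and a transient AF4-MLL plasmid that was lost once selection ended. Induction was with doxycycline at 1 µg/ml for 48 h in each setting, and 3 libraries were made per setting on each of day 3 and day 28, 18 in all. The comparisons describe how accessibility differs between these settings shortly after the induction and weeks later. Co-expressing cells differ from MLL-AF4 cells in the added AF4-MLL construct and also in a constitutive instead of an inducible MLL-AF4 construct. Their comparison cannot tell these differences apart. Libraries of untransfected or uninduced cells were not analysed here. The fusion genes were delivered with Sleeping Beauty transposon vectors into a kidney line, which is not the blood cell in which the translocation arises. The constructs themselves carry cDNA parts of AFF1 and KMT2A, so the counts of these genes can hold reads from construct DNA, which the table cannot tell apart from reads of the resident genes.

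ELL2, which codes for an elongation factor, was the only one of the 10 genes called at an adjusted p under 0.05 with trimmed-mean (TMM) scaling of the libraries. It was called in 2 of 12 comparisons. Its count fell in MLL-AF4 cells from day 3 to day 28, and it was lower in co-expressing cells than in MLL-AF4 cells on day 3. These comparisons share the 3 MLL-AF4 libraries of day 3, in which ELL2 was highest. Of all tested genes, 2.87% were called in the first comparison and 1.81% in the second. In bulk samples, a lower count from fewer cells with an open gene cannot be told apart from one with a less open gene in every cell.

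The super elongation complex releases paused RNA polymerase II into productive elongation. AFF1 and AFF4 are its flexible scaffolds and hold P-TEFb, the kinase of CDK9 and cyclin T, together with an ELL family elongation factor, which EAF1 or EAF2 binds, and with MLLT1 (ENL) or MLLT3 (AF9), whose YEATS domains read acylated histones. AFF2 and AFF3 are the other paralogues of the scaffold. Several of these genes, AFF1, MLLT1, MLLT3 and ELL among them, are known fusion partners of KMT2A in leukaemia, and AFF1 is the partner in t(4;11).

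The libraries held 442159 to 3539937 counts, with a median of 1254820. Mitochondrial genes took 32.7% to 45.6% of the counts on day 3 and 63.6% to 68.5% on day 28. Nuclear copies of mitochondrial DNA took 4.9% to 8.26% of the chromosome counts on day 3 and 16.4% to 19.9% on day 28. Scaled by library size alone, all tested genes had a median log2 change over time of -1.06 (AF4-MLL), -0.873 (MLL-AF4) and -1.07 (co-expressing cells). The part of each rise in this shift was not tested, and all directions over time given here are relative to the TMM scaling. The kidney line was checked with 6 genes known to be active in it (VIM, KRT8, KRT18, NEFL, NEFM and PAX2). Their summed level was 156 to 198 CPM (counts relative to the scaled total of the library) over the libraries. Of the blood genes that a kidney line is not expected to use, CD3E and CD79A had at most 7 and 8 counts in a library, whereas PTPRC, SPI1 and CD34 averaged 13.1, 19.4 and 15.1 CPM over the 18 libraries. The summed level of the kidney genes was 195 to 198 CPM in MLL-AF4 cells on day 3, above all other libraries. It did not overlap with MLL-AF4 cells on day 28 (172 to 189 CPM) or, on day 3, with co-expressing cells (176 to 194 CPM) and AF4-MLL cells (178 to 194 CPM), and the part of this in the ELL2 results was not tested.

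Accessibility is usually strongest at the start of a gene, so the start regions of the scaffold paralogues are shown first. RefSeq windows of 300 bases, 250 before and 50 after a start site (GRCh38.p14), were found for 9 of the 10 genes, 11 windows in all. ELL2 had no window, so its start region is not described here. The windows at the outermost start of AFF1, AFF4 and AFF3 are given 5′ to 3′ on the gene's strand, with each CG dinucleotide in capitals. They show how unlike the starts of these paralogues are in CG content.
AFF1, chr4:86934761-86935060, plus strand: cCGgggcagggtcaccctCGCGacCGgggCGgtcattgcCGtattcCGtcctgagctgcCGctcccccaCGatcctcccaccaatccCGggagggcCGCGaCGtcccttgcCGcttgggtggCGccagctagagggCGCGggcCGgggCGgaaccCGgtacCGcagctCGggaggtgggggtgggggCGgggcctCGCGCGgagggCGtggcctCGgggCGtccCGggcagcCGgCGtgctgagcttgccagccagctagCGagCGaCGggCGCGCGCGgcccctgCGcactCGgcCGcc
AFF4, chr5:132963585-132963884, minus strand: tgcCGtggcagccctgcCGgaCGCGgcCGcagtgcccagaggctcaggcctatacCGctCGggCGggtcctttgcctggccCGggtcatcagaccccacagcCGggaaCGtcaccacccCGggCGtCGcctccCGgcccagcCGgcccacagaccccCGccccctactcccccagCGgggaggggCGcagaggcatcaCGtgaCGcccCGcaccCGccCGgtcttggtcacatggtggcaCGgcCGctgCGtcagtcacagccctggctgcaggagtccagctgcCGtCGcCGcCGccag
AFF3, chr2:100142541-100142840, minus strand: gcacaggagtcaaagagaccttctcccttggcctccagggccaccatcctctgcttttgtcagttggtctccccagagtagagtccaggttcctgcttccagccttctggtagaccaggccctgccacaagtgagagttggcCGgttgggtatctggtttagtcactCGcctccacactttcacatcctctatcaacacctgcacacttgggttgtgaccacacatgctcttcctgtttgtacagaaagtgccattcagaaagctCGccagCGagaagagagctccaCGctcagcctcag

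The AFF1 window held 42 CG dinucleotides with a GC content of 77.7%, and the AFF4 window held 31 with 74.7%. The AFF3 window held 5 with 54.7%. Over all 34961 windows the median was 14 CG dinucleotides and 58.7% GC. A second AFF1 window, 72.3 kb into the gene, held 41 CG dinucleotides, and a second AFF3 window, 37.0 kb into the gene, held 8. The single AFF2 window lay 218 kb inside the gene and so does not describe its outermost start; it held 1 CG dinucleotide. At the outermost starts of the partners other than ELL2 the number of CG dinucleotides was 31 for ELL, 19 for EAF1, 31 for EAF2, 43 for MLLT1 and 24 for MLLT3. Short motifs were searched on both strands of the 11 windows. GGGCGG was found in 9 of them (45.0% of all windows), CCAAT in 6 (34.6%), CCGGAAG in 3 (10.3%), CACGTG in 2 (7.27%) and TATAAA in 0 (11.5%). A match of letters is a description and not a binding site. Each gene has a single count per library, and the region it covers is not given. The counts thus do not tell the start region apart from the rest of the gene.

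The genes differed widely in level. Averaged over the 18 libraries, AFF1 had 56.4 CPM, ELL2 45.4 CPM, MLLT3 34.8 CPM, AFF4 27.5 CPM and AFF3 18.4 CPM. EAF1 followed with 15.7 CPM, ELL with 13.6 CPM, AFF2 with 11.1 CPM, EAF2 with 10.4 CPM and MLLT1 with 6.11 CPM. Levels of different genes were compared per kb of gene span, although the region counted for each gene is not given in the sources used here. Across 13978 protein-coding genes the Spearman correlation of mean CPM with span was 0.0321, so long genes had low densities as a rule. EAF1, the shortest member at 15.02 kb, had the highest density with 1.05 CPM per kb, and ELL2 followed with 0.591 CPM per kb. The median protein-coding gene had 0.543 CPM per kb. AFF4 (0.311 CPM per kb), AFF1 (0.274), EAF2 (0.202), ELL (0.171), MLLT3 (0.124) and MLLT1 (0.0878) lay below it. AFF3 with 0.0309 CPM per kb over 597 kb and AFF2 with 0.0222 CPM per kb over 500.0 kb were at percentiles 2.27 and 1.32 of the protein-coding genes by density. By CPM, without the span, AFF3 was at percentile 50, AFF2 at 22.8, AFF1 at 96.1, ELL2 at 92.1 and MLLT3 at 84.1.

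**Figure D1:**
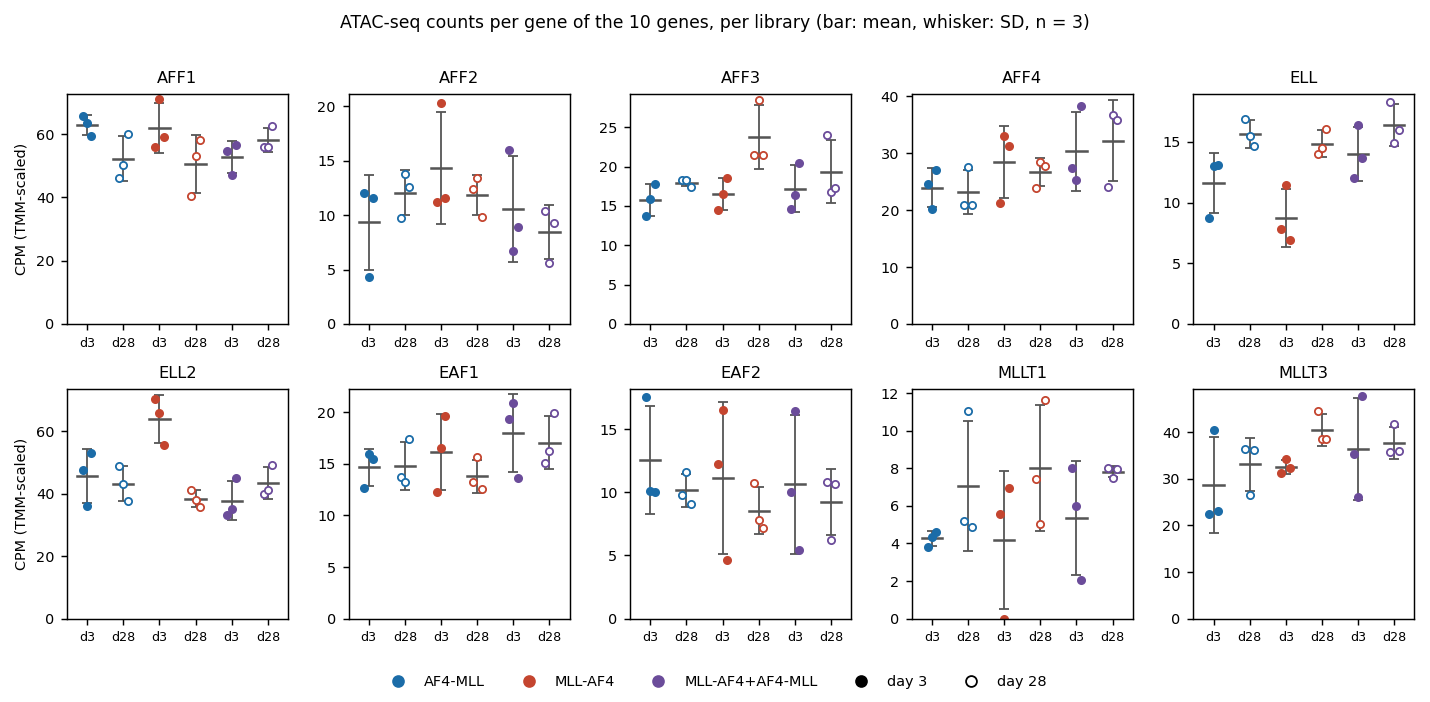
ATAC-seq level of each of the 10 genes in every library, in TMM-scaled CPM on axes that start at 0, for the 3 construct settings on day 3 (d3, filled points) and day 28 (d28, open points). Bars are means and whiskers SDs over 3 libraries; the 3 MLL-AF4 libraries of day 3 lie above all others for ELL2, between 55.5 and 70.3 CPM.

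With 6 groups in order of their mean, each gene has 5 pairs of neighbouring groups. For 9 of the 10 genes every such pair overlapped. In ELL2, MLL-AF4 cells on day 3 lay above the next group without overlap, which was 1 of the 5 pairs. The share of all tested genes with such a step was not counted, so this describes ELL2 and does not set it apart. The highest group mean was 1.25 times the lowest for AFF1, 1.30 times for EAF1, 1.39 times for AFF4, 1.41 times for MLLT3, 1.47 times for EAF2 and 1.51 times for AFF3. It was 1.69 times for ELL2, 1.70 times for AFF2, 1.88 times for ELL and 1.92 times for MLLT1. The wide ratios of AFF2, ELL and MLLT1 came with few counts, since these genes had 3 to 25, 6 to 39 and 0 to 20 counts in a library.

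Each comparison was read against all 17660 tested genes with edgeR's quasi-likelihood test, with DESeq2 beside it. Over time in AF4-MLL cells 0 of the 10 genes were called by edgeR (0.606% of all genes) and 0 by DESeq2 (0.379%), and 0 had an unadjusted p under 0.05 (9.29%). In MLL-AF4 cells 1 was called by both, ELL2, against 1.48% of all genes by DESeq2. There 3 genes had an unadjusted p under 0.05 (15.8% of all genes), ELL and AFF3 with higher counts on day 28 and ELL2 with lower. In co-expressing cells 0 were called by edgeR (0.606%) and by DESeq2 (0.385%), and 0 had an unadjusted p under 0.05 (9.51%). DESeq2 gave an adjusted p to 4, 3 and 9 of the 10 genes in these comparisons, and could call none of the rest. The median log2 change of the 10 genes was 0.13, -0.13 and 0.08 in the 3 settings, and that of all genes was between -0.00334 and 0.00442.

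Between co-expressing and MLL-AF4 cells on day 3, ELL2 was again the 1 gene called by both tools (0.436% of all genes by DESeq2) and the 1 gene with an unadjusted p under 0.05 (14.5%). Between co-expressing and AF4-MLL cells on day 3, 0 were called by edgeR (1.28%) and 0 by DESeq2 (0.187%), and 1, MLLT3, had an unadjusted p under 0.05 (12.3%). Between AF4-MLL and MLL-AF4 cells on day 3, 0 were called by edgeR (0.142%) and 0 by DESeq2 (0.0849%), and 1, ELL2, had an unadjusted p under 0.05 (9.55%). In these 3 comparisons of day 3 DESeq2 gave an adjusted p to 5, 7 and 1 of the 10 genes. On day 28 the 10 genes gave 0 calls in each pair of settings, with an adjusted p from DESeq2 for 5, 10 and 10 of them in the same order. Between co-expressing and MLL-AF4 cells edgeR called 1.17% of all genes and DESeq2 0.13%, and 0 of the 10 genes had an unadjusted p under 0.05 (11.8%). Between co-expressing and AF4-MLL cells the shares called were 1.69% and 0.243%, and 1 gene, AFF4, had an unadjusted p under 0.05 (12.7%). Between AF4-MLL and MLL-AF4 cells they were 0.0793% and 0.0113%, and 1 gene, AFF3, had an unadjusted p under 0.05 (8.26%).

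The change over time was also compared between settings with interaction terms, in which 0 of the 10 genes were called by either tool; DESeq2 gave an adjusted p to 3, 3 and 10 of them in the order given here. For co-expressing against MLL-AF4 cells edgeR called 0.232% of all genes and DESeq2 0.0963%, and 1 of the 10 genes, ELL2, had an unadjusted p under 0.05 (9.73%). For AF4-MLL against MLL-AF4 cells the shares called were 0.317% and 0.125%, and ELL2 was again the 1 gene with an unadjusted p under 0.05 (9.75%). For co-expressing against AF4-MLL cells both tools called 0% of all genes, and 0 of the 10 genes had an unadjusted p under 0.05 (5.05%).

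**Figure D2:**
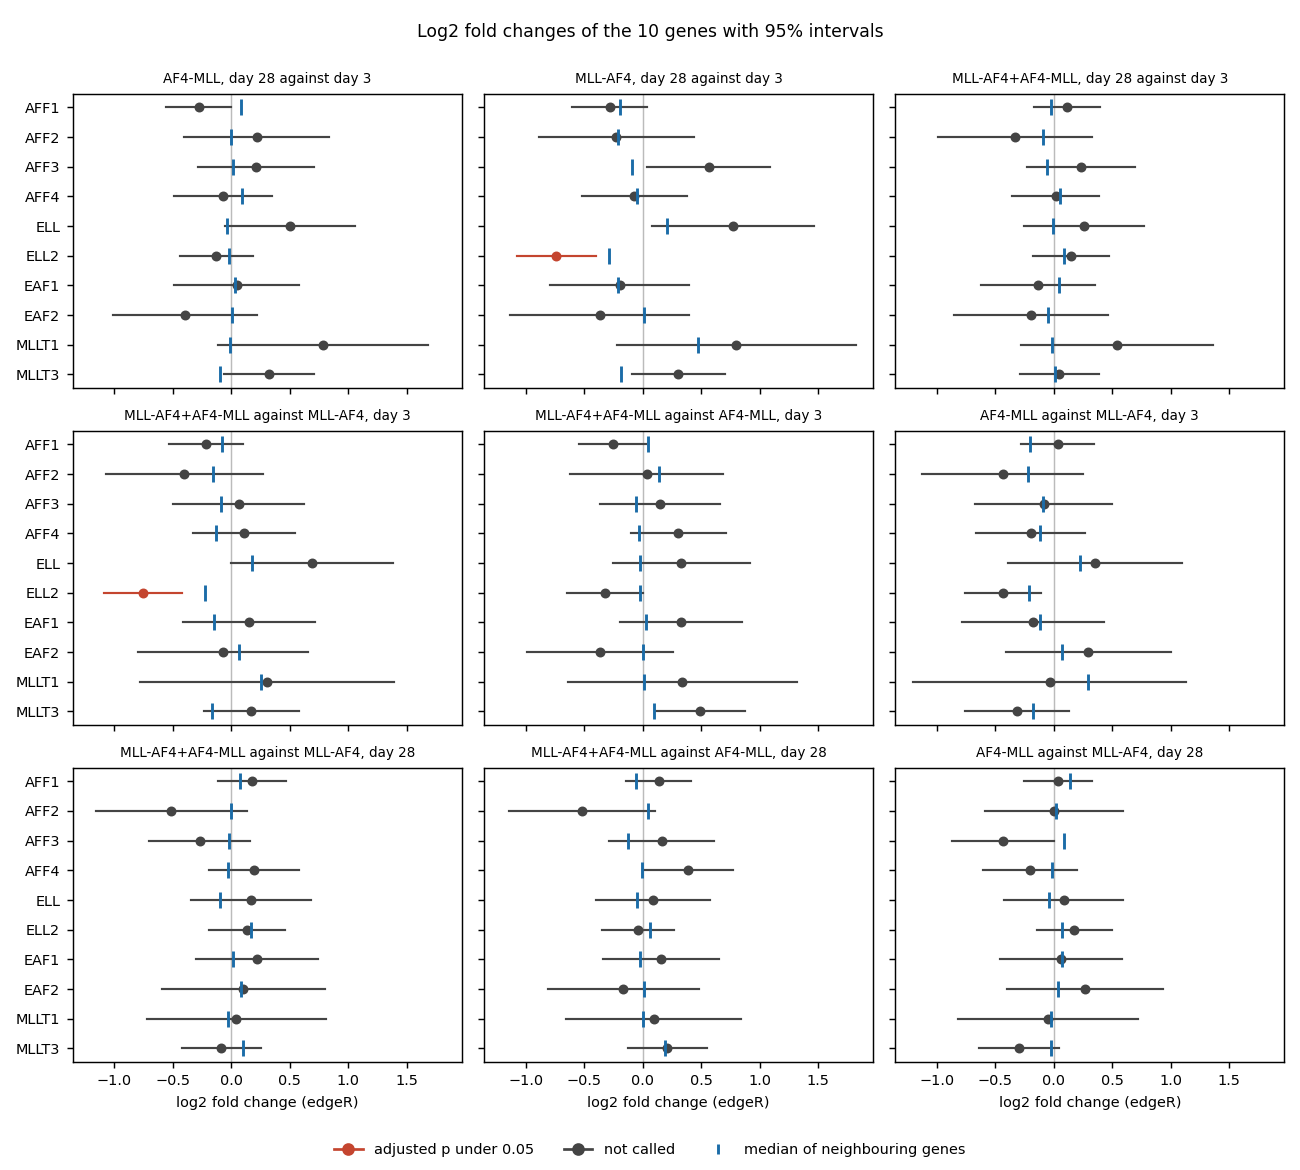
Log2 fold change of each of the 10 genes (rows) in the 9 comparisons of 2 groups (panels), from edgeR, with 95% intervals; blue ticks mark the median log2 change of the 25 tested genes on each side along the chromosome. The 2 red points, ELL2 at -0.74 and -0.75, are the values called at an adjusted p under 0.05.

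AFF1, on chromosome 4 from 86935011 to 87141039 (GRCh38, like all positions here), is the scaffold that gives AF4 its name in the constructs. In AF4-MLL cells the libraries had 65.8, 63.6 and 59.3 CPM on day 3 and 46.2, 50.3 and 60.0 CPM on day 28. The MLL-AF4 libraries had 55.8, 71.0 and 59.0 CPM on day 3 and 40.4, 53.0 and 58.2 CPM on day 28. Both pairs of groups overlapped, and the log2 values were -0.28 in each setting (SE 0.143 and 0.163, edgeR adjusted p 0.538 and 0.404). In co-expressing cells the values were 54.7, 47.0 and 56.7 CPM on day 3 and 55.9, 56.0 and 62.5 CPM on day 28, with a log2 value of 0.11 (SE 0.143, adjusted p 0.863). AF4-MLL and MLL-AF4 cells, whose constructs carry different parts of AFF1, differed by 0.03 on day 3 (95% interval -0.28 to 0.35) and by 0.04 on day 28 (-0.25 to 0.32). Co-expressing cells lay below AF4-MLL cells in all libraries of day 3, with a log2 value of -0.25 (SE 0.145, adjusted p 0.490). AFF1 overlaps 2 other genes of the table.

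KMT2A, the other parent gene of the fusions, is named here for comparison. It had 83.3, 108 and 97.9 CPM in AF4-MLL cells on day 3 but 40.2, 39.3 and 27.7 CPM in MLL-AF4 cells, which did not overlap. AF4-MLL cells were higher by 1.39 on the log2 scale (SE 0.169, edgeR adjusted p 1.71e-10), while the 50 tested neighbours of KMT2A had a median of 0.05. The difference of AFF1 between the same libraries was 0.03, and its neighbours had a median of -0.20. On day 28 KMT2A had 99.0, 99.99 and 83.0 CPM in AF4-MLL cells and 47.0, 43.5 and 45.6 CPM in MLL-AF4 cells, a log2 value of 1.06 (SE 0.135, adjusted p 7.54e-10). Co-expressing cells had 47.3, 53.7 and 57.4 CPM on day 3 and 79.9, 59.8 and 62.5 CPM on day 28, between the single fusions on both days without overlap. They were lower than AF4-MLL cells by a log2 value of -0.83 on day 3 (adjusted p 9.06e-06) and -0.45 on day 28 (adjusted p 0.0295). Against MLL-AF4 cells the log2 values were 0.56 on day 3 (adjusted p 0.0876), which did not pass, and 0.62 on day 28 (adjusted p 0.00723). The calls of co-expressing cells on day 28 were not made by DESeq2 (adjusted p 0.284 and 0.120) and were lost with library size only. The call against AF4-MLL cells was also lost with chromosome shares scaled, without a filter on low counts and without AF4-MLL replicate 1 or 2 or co-expressing replicate 2 or 3 of that day (log2 -0.41 to -0.34), and the call against MLL-AF4 cells without MLL-AF4 replicate 2 or co-expressing replicate 1 (log2 0.58 and 0.43). Over time KMT2A had log2 values of 0.01, 0.34 and 0.39 in AF4-MLL, MLL-AF4 and co-expressing cells, none called with TMM scaling (adjusted p 0.987, 0.394 and 0.234).

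AFF4, on chromosome 5 from 132875395 to 132963634, is the scaffold of most super elongation complexes. Its group means ran from 23.1 ± 3.9 CPM (SD, n = 3) in AF4-MLL cells to 32.2 ± 7.1 CPM in co-expressing cells, both on day 28. Co-expressing cells had 24.0, 36.7 and 35.9 CPM on day 28 and AF4-MLL cells 20.8, 27.6 and 20.9 CPM. These groups overlapped, and the log2 value of 0.39 (SE 0.195) had an unadjusted p of 0.0458 but an edgeR adjusted p of 0.379. Over time AFF4 had log2 values of -0.07 (95% interval -0.49 to 0.35) in AF4-MLL cells, -0.07 (-0.52 to 0.38) in MLL-AF4 cells and 0.02 (-0.36 to 0.39) in co-expressing cells.

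AFF3, on chromosome 2 from 99545419 to 100142590, is a paralogue best known from lymphoid cells. The MLL-AF4 libraries had 14.5, 16.5 and 18.5 CPM on day 3 and 21.4, 28.5 and 21.5 CPM on day 28. The groups did not overlap, day 28 being higher, but the log2 value of 0.56 (SE 0.266, unadjusted p 0.0351) did not pass the adjustment (edgeR adjusted p 0.269), and it was -0.32 with library size as the only scaling. The 18.2, 18.2 and 17.4 CPM of AF4-MLL cells on day 28 also lay below the MLL-AF4 libraries of that day, with a log2 value of -0.44 (SE 0.222, adjusted p 0.605). In co-expressing cells AFF3 had 14.7, 16.4 and 20.5 CPM on day 3 and 24.0, 16.8 and 17.3 CPM on day 28, which overlapped. The tested neighbours of AFF3 had a median of -0.09 over time in MLL-AF4 cells.

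AFF2, on chromosome X from 148500617 to 149000663, is the paralogue at the fragile site FRAXE. It had the lowest density of the 10 genes and 3 to 25 counts in a library. Its group means ran from 8.42 ± 2.5 CPM (SD, n = 3) in co-expressing cells on day 28 to 14.3 ± 5.2 CPM in MLL-AF4 cells on day 3. Among the 9 comparisons of 2 groups the largest difference was -0.52 on the log2 scale, between co-expressing and AF4-MLL cells on day 28, with a 95% interval from -1.14 to 0.11 (edgeR adjusted p 0.528). Its SE was 0.300 to 0.351 in the comparisons of 2 groups, and differences of this size were not detectable for AFF2 at this depth.

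ELL2 lies on chromosome 5 from 95885098 to 95961851 and codes for a paralogue of ELL that the complex also uses. In MLL-AF4 cells the 3 libraries had 70.3, 66.0 and 55.5 CPM on day 3, from 63, 52 and 48 counts. On day 28 they had 41.2, 37.9 and 35.8 CPM, from 50, 68 and 40 counts. The groups did not overlap, and day 28 was lower. In AF4-MLL cells ELL2 had 47.7, 36.2 and 53.2 CPM on day 3 and 48.8, 43.1 and 37.7 CPM on day 28. In co-expressing cells it had 33.3, 35.1 and 45.1 CPM on day 3 and 40.0, 41.1 and 49.2 CPM on day 28. In both of these settings the days overlapped, and the MLL-AF4 libraries of day 3 were the 3 highest of all 18.

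From day 3 to day 28 ELL2 fell by 0.74 on the log2 scale in MLL-AF4 cells (SE 0.171, 95% interval -1.07 to -0.40, edgeR adjusted p 0.00331, DESeq2 adjusted p 0.00789). In AF4-MLL cells the value was -0.13 (SE 0.158, adjusted p 0.865) and in co-expressing cells 0.15 (SE 0.165, adjusted p 0.820). On day 3 co-expressing cells were lower than MLL-AF4 cells by a log2 value of -0.75 (SE 0.170, 95% interval -1.09 to -0.42, edgeR adjusted p 0.00376, DESeq2 adjusted p 0.0281). AF4-MLL cells were also below MLL-AF4 cells in all libraries on that day, but the value of -0.43 (SE 0.167, unadjusted p 0.00991) had an adjusted p of 0.356. On day 28 the settings overlapped, with log2 values of 0.13 for co-expressing against MLL-AF4 cells (95% interval -0.19 to 0.46), -0.04 for co-expressing against AF4-MLL cells (-0.35 to 0.27) and 0.18 for AF4-MLL against MLL-AF4 cells (-0.14 to 0.50).

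That ELL2 changed over time in 1 setting and not in the others does not show that the settings differ, so the difference itself was tested. The change over time in co-expressing cells exceeded that in MLL-AF4 cells by 0.89 (SE 0.237, unadjusted p 0.000224, edgeR adjusted p 0.0600), which did not pass. For AF4-MLL against MLL-AF4 cells it was 0.61 (SE 0.233, adjusted p 0.315). Both calls of ELL2 rested on the day 3 replicate 1 of MLL-AF4 cells: without it the value over time was -0.66 (adjusted p 0.0639) and the value between settings -0.67 (adjusted p 0.0773). The call over time was also lost, at -0.50, when each chromosome's share was scaled without nuclear copies of mitochondrial DNA, and the call between settings was lost, at -0.61 and -0.63, with library size only or without a filter on low counts.

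The region around ELL2 moved in the same direction. Over the 50 tested neighbours, 25 on each side, the median log2 change was -0.29 over time in MLL-AF4 cells, with a range from -1.07 to 1.81 and 8 neighbours called in either direction. There 6 of the 50 neighbours had a lower value than ELL2. The upper end of the range was MTND6P3, a nuclear copy of mitochondrial DNA, which also had 1.89 in AF4-MLL and 1.85 in co-expressing cells over time. Between co-expressing and MLL-AF4 cells on day 3 the neighbours' median was -0.23, 2 of 50 were lower than ELL2 and 1 was called. Between AF4-MLL and MLL-AF4 cells on day 3 it was -0.21, and 5 of 50 were lower. In AF4-MLL and co-expressing cells the neighbours' median over time was -0.02 and 0.09. What the region's shift contributed to the value of ELL2 was not tested beyond the scaling by chromosome.

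**Figure D3:**
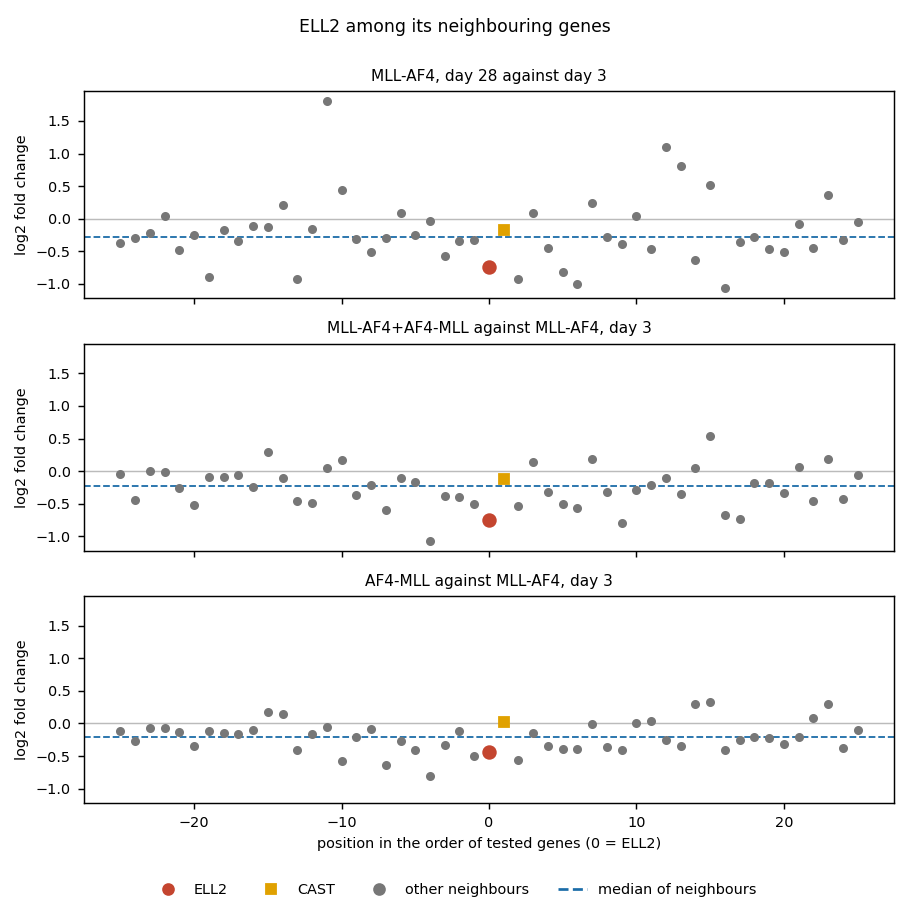
Log2 fold change of ELL2 (red) and its 25 tested neighbours on each side in chromosome order (position 0 is ELL2), in the 3 comparisons that involve the MLL-AF4 libraries of day 3. The dashed medians lie at -0.29, -0.23 and -0.21, and ELL2 lies below them in each panel, with CAST, which overlaps it, nearer to 0.

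ELL2 overlaps CAST, the gene of the calpain inhibitor calpastatin, and reads do not carry strand in this assay. How reads in the overlap were counted is not given in the sources used here. CAST had 43.5, 49.5 and 55.5 CPM in MLL-AF4 cells on day 3 and 47.0, 45.7 and 36.7 CPM on day 28, which overlapped. Its log2 value was -0.18 over time in these cells (edgeR adjusted p 0.675) and -0.13 between co-expressing and MLL-AF4 cells on day 3 (adjusted p 0.804). Over all 18 libraries the genes whose log2 CPM was most like that of ELL2 were LANCL2 on chromosome 7 (Pearson r 0.836), MME on chromosome 3 (0.820) and SPOCK3 on chromosome 4 (0.818). These are the highest of 15389 genes compared, the points share libraries and their depth, and the values are a description.

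ELL, the founding member of the ELL family, lies on chromosome 19 from 18442663 to 18522070. The MLL-AF4 libraries had 7.81, 11.4 and 6.94 CPM on day 3, from 7, 9 and 6 counts, and 14.0, 14.5 and 16.1 CPM on day 28. Day 28 lay above day 3 in every library, but the log2 value of 0.77 (SE 0.351, unadjusted p 0.0286) had an edgeR adjusted p of 0.248, and it was -0.10 with library size as the only scaling. In AF4-MLL cells the libraries had 8.77, 13.0 and 13.1 CPM on day 3 and 16.9, 15.5 and 14.7 CPM on day 28, which did not overlap, with a log2 value of 0.50 (SE 0.284, adjusted p 0.600). In co-expressing cells they had 18, 22 and 20 counts on day 3 and 39, 24 and 12 counts on day 28, and their CPM overlapped, with a log2 value of 0.26 (SE 0.261, adjusted p 0.804). ELL and ELL2 thus had log2 values of opposite sign over time in MLL-AF4 cells, but only that of ELL2 passed the test. The tested neighbours of ELL had a median of 0.21 there.

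EAF1 and EAF2 both lie on chromosome 3, from 15427598 to 15442613 and from 121835209 to 121886526, and code for factors that bind ELL proteins and raise their activity. Neither was called. EAF1 ranged from 12.3 to 20.9 CPM over the 18 libraries, with log2 values over time of 0.05 in AF4-MLL cells (95% interval -0.49 to 0.58), -0.20 in MLL-AF4 cells (-0.79 to 0.40) and -0.13 in co-expressing cells (-0.62 to 0.36). Its largest difference between settings was 0.33, between co-expressing and AF4-MLL cells on day 3 (edgeR adjusted p 0.671). EAF1 overlaps 2 other genes of the table, METTL6 among them. EAF2 ranged from 4.62 to 17.5 CPM, and its 3 libraries were far apart on day 3, from 4.62 to 16.5 CPM in MLL-AF4 cells, and from 5.46 to 16.4 CPM in co-expressing cells. In AF4-MLL cells they had 32, 7 and 13 counts, the first equal to 17.5 CPM. The mean was lower on day 28 in every setting, with log2 values of -0.40 (SE 0.311), -0.37 (SE 0.388) and -0.20 (SE 0.334) and adjusted p-values from 0.706 to 0.902. The days overlapped in each setting.

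MLLT3 (AF9), on chromosome 9 from 20341669 to 20622499, is a YEATS domain reader that also joins the DOT1L complex. On day 3 it had 22.5, 40.5 and 23.1 CPM in AF4-MLL cells, 31.2, 34.3 and 32.4 CPM in MLL-AF4 cells and 35.3, 26.1 and 47.8 CPM in co-expressing cells. On day 28 it had 36.5, 26.5 and 36.3, 44.5, 38.5 and 38.5, and 35.7, 41.7 and 35.9 CPM in the same order. Day 28 lay above day 3 in MLL-AF4 cells without overlap, with a log2 value of 0.31 (SE 0.203, edgeR adjusted p 0.484) that turned to -0.57 with library size only. The groups overlapped between co-expressing and AF4-MLL cells on day 3, where the log2 value of 0.49 (SE 0.195) had an unadjusted p of 0.0131 and an adjusted p of 0.235. MLLT3 overlaps 3 other genes of the table.

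MLLT1 (ENL), on chromosome 19 from 6210381 to 6279975, is the paralogue of MLLT3 in the complex and had the fewest counts, 151 summed over the 18 libraries. The day 3 replicate 2 of MLL-AF4 cells had 0 counts, which allows up to 3. Group means ran from 4.17 ± 3.7 CPM (SD, n = 3) in MLL-AF4 cells on day 3 to 8.02 ± 3.4 CPM on day 28. The log2 values over time were 0.78 in AF4-MLL cells (95% interval -0.11 to 1.68), 0.80 in MLL-AF4 cells (-0.22 to 1.82) and 0.54 in co-expressing cells (-0.28 to 1.36), with edgeR adjusted p-values from 0.475 to 0.724. The 50 tested neighbours of MLLT1 had a median of 0.48 over time in MLL-AF4 cells and of -0.01 and -0.02 in the other settings. Between settings the intervals of MLLT1 spanned more than 1 on the log2 scale in both directions on day 3 in the comparison of AF4-MLL with MLL-AF4 cells (-1.21 to 1.13), so differences of that size could not be seen.

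The rest of the elongation machinery was followed with a list of 35 genes, all tested: P-TEFb and its inhibitors, pausing factors, the PAF1 and DOT1L complexes, other ELL and YEATS genes and KMT2A with its cofactors. Of these, 0, 1 and 0 were called over time in AF4-MLL, MLL-AF4 and co-expressing cells, against 0.606%, 2.87% and 0.606% of all tested genes. On day 3, 2 were called between co-expressing and MLL-AF4 cells (1.81% of all genes), 2 between co-expressing and AF4-MLL cells (1.28%) and 1 between AF4-MLL and MLL-AF4 cells (0.142%). On day 28 the numbers were 2 (1.17%), 2 (1.69%) and 1 (0.0793%), and in the 3 interactions 0 (0% to 0.317%). They came from 5 genes, and by DESeq2 the calls were 3 in all, each of them KMT2A. By edgeR, KMT2A was the 1 call between AF4-MLL and MLL-AF4 cells on each day. It was also 1 of the 2 between co-expressing and AF4-MLL cells on each day, and 1 of the 2 between co-expressing and MLL-AF4 cells on day 28. Its counts can hold reads from construct DNA, and the part of such reads in these calls was not tested. DESeq2 gave no adjusted p for SUPT6H over time in MLL-AF4 cells and for LEO1 on day 28. The median log2 change of the list was -0.02, 0.14 and 0.02 over time in the 3 settings.

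SUPT6H, the histone chaperone SPT6 that travels with the elongating polymerase, had 11.2, 7.61 and 18.5 CPM in MLL-AF4 cells on day 3 and 30.5, 24.0 and 27.7 CPM on day 28. It rose by 1.10 over time (SE 0.281, edgeR adjusted p 0.0105). It was also higher in co-expressing than in MLL-AF4 cells on day 3, with 29.3, 30.6 and 17.1 CPM and a log2 value of 1.02 (SE 0.282, adjusted p 0.0301), and these groups overlapped. HEXIM2, which holds P-TEFb inactive, had 10.04, 17.8 and 16.2 CPM in MLL-AF4 cells on day 3 and 31.3, 27.6 and 30.7 CPM in co-expressing cells, a log2 value of 1.04 (SE 0.262, adjusted p 0.0131). SUPT6H and HEXIM2 thus differed from ELL2 in sign in comparisons that use the same MLL-AF4 libraries of day 3, and both calls in co-expressing against MLL-AF4 cells were lost without replicate 1 of that group (log2 0.94 and 0.82). Over 16 alternatives SUPT6H was called in 11 over time and in 9 between settings, and HEXIM2 in 12.

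ELL3, the third gene of the ELL family, was higher in co-expressing than in AF4-MLL cells by 0.74 on day 3 (SE 0.199, edgeR adjusted p 0.0265) and by 0.82 on day 28 (SE 0.191, adjusted p 0.00550). LEO1, a subunit of the PAF1 complex, was higher in co-expressing than in MLL-AF4 cells on day 28 by 1.61 (SE 0.368, adjusted p 0.00516), from 3.58 to 5.58 CPM and from 14.1 to 14.6 CPM in the libraries. Both genes lie on chromosome 15, where the 50 tested neighbours had medians of 0.62 and 0.60 for ELL3 and of 0.52 for LEO1. With each chromosome's share scaled, the values of ELL3 were 0.49 and 0.56 (adjusted p 0.310 and 0.165) and that of LEO1 1.35 (adjusted p 0.0637), and none passed. Between co-expressing and AF4-MLL cells the members ELL had log2 values of 0.33 and 0.09 and ELL2 of -0.32 and -0.04 on day 3 and day 28, none called, and the difference of these genes from ELL3 was not tested.

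**Figure D4:**
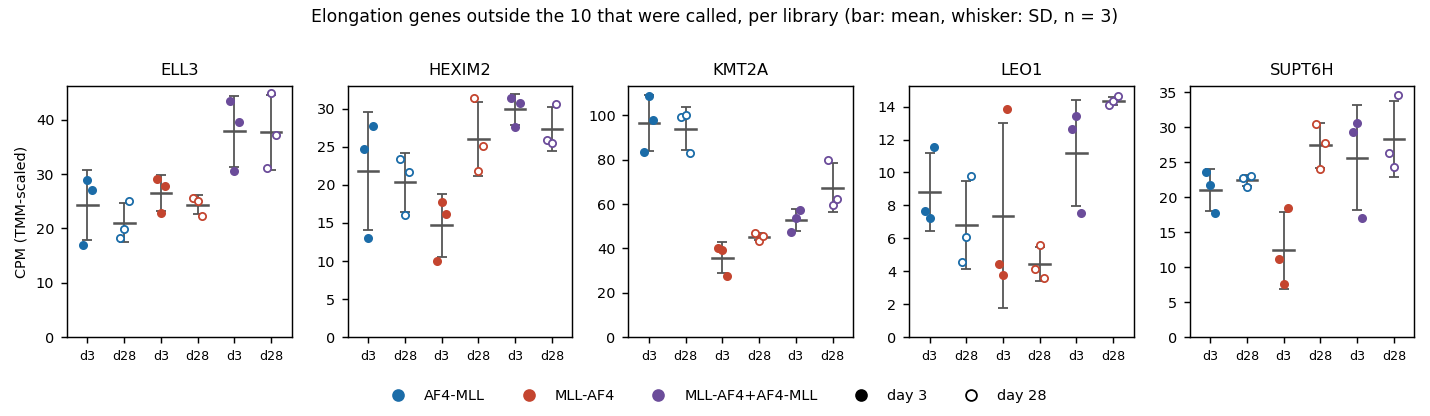
TMM-scaled CPM per library, on axes that start at 0, of the 5 called genes of the elongation list, in the 3 construct settings on day 3 (d3, filled) and day 28 (d28, open). Bars are means and whiskers SDs over 3 libraries; KMT2A is highest in AF4-MLL cells (83.0 to 108 CPM) and SUPT6H lowest in MLL-AF4 cells on day 3 (7.61 to 18.5 CPM).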

How the data were processed

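ATAC-seq was carried out by the authors on freshly isolated nuclei with Nextera transposase. The submitters' processing notes name bcl2fastq, Bowtie2, HTSeq and the build GRCh38. The region counted per gene and the treatment of duplicate or multiply mapped reads are not given in the sources used here, nor is a shift of reads to the insertion site. The authors deposited raw read counts of 54425 genes, 1 column for each of 18 libraries. Counts were fitted with edgeR 4.0.16 in R 4.3.3, all 6 groups together, with TMM normalisation, filterByExpr (minimum count 10, minimum total count 15) and quasi-likelihood tests over 12 contrasts. A gene was called at a Benjamini-Hochberg adjusted p under 0.05 over the 17660 genes tested. The biological coefficient of variation was 7.48%. CPM values use TMM-scaled library sizes, and SE and 95% intervals, taken from the F statistic, are on the log2 scale.

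DESeq2 1.42.0, other scalings (DESeq2 size factors, library size only, a loess offset, chromosome shares), no mitochondrial genes, no filter, the replicate number as a block, fits of only the groups compared and leaving out each library were alternatives. Same-numbered replicates deviated with correlations from -0.0873 to 0.0376 over 45 pairs. These values do not show pairing by number, but counting noise at this depth can hide it, so they cannot exclude it. No 2 libraries were identical. The labels do not say what separates the replicates, and the p-values measure the spread between these libraries. The 10 genes and KMT2A were named by rule, as were genes of the elongation list where called and 3 genes most like a called member (log2 CPM with a prior count of 2, mean of at least 10 counts). The members and lists were chosen with earlier results of these data known. A summed level of blood cell markers is not reported here. Gene positions, neighbours and promoter windows come from RefSeq (GRCh38.p14), matched by symbol.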

Additional observations from a re-analysis of the deposited data

How the results depend on the processing

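With library size as the only scaling, which leaves the larger mitochondrial share of day 28 in the totals, 8, 7 and 9 of the 10 genes were called over time in AF4-MLL, MLL-AF4 and co-expressing cells, and 0 between co-expressing and MLL-AF4 cells on day 3. Of all 17660 genes tested, 15485, 11457 and 15566 were called over time in these settings, and 231 in that comparison of day 3. Calls over time were thus common to most genes under this scaling and not particular to the 10. The log2 values over time that turned their direction and were called were, in AF4-MLL cells, AFF2 -0.82, AFF3 -0.84, EAF1 -1.01, MLLT3 -0.75 and KMT2A -1.08. In MLL-AF4 cells they were MLLT3 -0.57 and KMT2A -0.54. In co-expressing cells they were AFF1 -0.95, AFF3 -0.86, AFF4 -1.03, ELL -0.82, ELL2 -0.91, MLLT3 -1.02 and KMT2A -0.70. Others turned without a call, ELL -0.56 and MLLT1 -0.27 in AF4-MLL cells, AFF3 -0.32, ELL -0.10 and MLLT1 -0.06 in MLL-AF4 cells and MLLT1 -0.52 in co-expressing cells. Scaling by the share of each chromosome gave 2, 3 and 1 calls over time, against 2781, 1748 and 2988 of all 17660 genes. It put the median of all genes at 0.235, 0.194 and 0.245 (TMM, -0.00334 to 0.00442). The 407 nuclear copies of mitochondrial DNA took 4.9% to 8.26% of the chromosome counts on day 3 and 16.4% to 19.9% on day 28. Leaving these copies out of the sums was an alternative chosen after seeing the data. It gave 0 calls over time in MLL-AF4 cells, against 728 of all 17660 genes, and ELL2 was at -0.50 there (adjusted p 0.0772). No filter on low counts gave 0 calls between co-expressing and MLL-AF4 cells on day 3, against 265 of the 54425 genes then tested. Leaving out 1 library at a time gave 0 to 1 calls in each of MLL-AF4 cells over time, co-expressing against MLL-AF4 cells on day 3 and the interaction of these settings. The first 2 fell to 0 without the day 3 replicate 1 of MLL-AF4 cells, and the interaction reached 1 (ELL2 at 1.04, adjusted p 0.0394) without replicate 3 of the co-expressing cells on day 3. Over all 16 alternatives the ELL2 value over time in MLL-AF4 cells was called in 14 (log2 -1.62 to -0.50, adjusted p 1.46e-12 to 0.0772). These 14 include library size only, under which 11457 of all 17660 genes were called, so that call is not particular to ELL2. The ELL2 value between settings was called in 13 (log2 -0.90 to -0.61, adjusted p 0.00283 to 0.0983). The replicate block, with ELL2 at -0.73 and -0.75 (adjusted p 0.00464 and 0.00449), changed no call, and the replicate numbers do not show pairing. With 0 to 20 counts for MLLT1 and 3 to 25 for AFF2, depth limits what could be seen for these genes.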
